A study of Rattus norvegicus with 9 samples.

Results

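The miR-181 family was followed through its 4 mature 5p miRNAs, listed as rno-miR-181a-5p, rno-miR-181b-5p, rno-miR-181c-5p and rno-miR-181d-5p, in small RNA libraries of cultured rat heart muscle cells in which Yap was raised or lowered. The members were taken by name, as 4 of the 1422 entries of the deposited table, and all 4 were among the 579 miRNAs abundant enough to be tested. The cells were primary neonatal rat cardiomyocytes (NRCMs), isolated from hearts of Sprague Dawley rats at 1 to 2 days of age and kept in normal glucose. Every group had received an adenovirus and was sampled after 48 h. Ad-GFP, carrying green fluorescent protein, was the control, genotype WT. Ad-Yap WT is labelled as Yap1 overexpression and Ad-Yap shRNA as Yap1 knock down, and there were 3 libraries in each of the 3 groups, called control, overexpression and knock-down below. Yap is a transcriptional co-activator held in check by the Hippo pathway.

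No group carried a virus with a non-targeting shRNA, so lower Yap and the mere presence of an shRNA cannot be told apart. The table holds miRNAs, so Yap mRNA and thus the manipulation was not checked here. Separate isolations are not stated for the replicates, and the p-values therefore measure a spread among libraries that may be technical. Single libraries held 1482367 to 3599483 miRNA reads, with the control libraries deepest at 3496284 or more and the knock-down libraries at 2094541 or fewer. All 6 cardiac muscle miRNAs listed as markers were in the table, at a summed level of 46501 CPM or more in every Ad-GFP library. CPM here are reads per 1e+06 after TMM scaling among the miRNAs of a library.

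A microRNA guides the silencing complex to messenger RNAs through its seed, bases 2 to 8 from its 5′ end, so family members that share a seed can share targets. miR-181a and miR-181b are each made from a pair of genes, arranged as neighbours in clusters on separate chromosomes, while miR-181c and miR-181d form a further cluster. In lymphocytes of mice miR-181a is known to tune T cell receptor signalling, and in mouse endothelium miR-181b restrains NF-kB signalling. In rat cardiomyocytes miR-181c has been found inside mitochondria, where it lowers a cytochrome oxidase subunit encoded by the mitochondrial genome. miR-181d is less studied and was reported to lower the DNA repair gene MGMT in human glioma.

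The 4 mature sequences are shown because their similarity bears on how reads can be assigned, with the seed in capitals. They are from RefSeq (GRCr8 assembly of the rat genome), while the submitters' processing notes name rn6. Each is written 5′ to 3′.
miR-181a-5p: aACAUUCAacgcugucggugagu
miR-181b-5p: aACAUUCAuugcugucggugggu
miR-181c-5p: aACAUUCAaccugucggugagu
miR-181d-5p: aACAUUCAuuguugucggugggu
The seed was the same in all 4, and among 693 mature rat miRNA names in the RefSeq table no other carried it. Outside the seed, miR-181b-5p and miR-181d-5p differed by the single substitution C12U, counted from 1 at the 5′ end with the base of miR-181b-5p first. miR-181a-5p and miR-181b-5p differed by A9U, C10U and A21G. miR-181c-5p differed from miR-181a-5p by 1 missing base. No source used here gives how reads that match more than 1 of them were assigned, so counts of members that differ by 1 base are less certain than their number implies.

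In GRCr8, miR-181a-5p lies on the plus strand at chr13:52037081-52037103 and chr3:43025601-43025623. miR-181b-5p lies at chr13:52037263-52037285, 182 bases downstream of the first copy of miR-181a-5p. The gene Mir181b2 is the neighbour of the copy on chromosome 3. On chromosome 3 the pair overlaps Nr6a1, a nuclear receptor gene, and a long non-coding RNA. On chromosome 13 the pair overlaps another long non-coding RNA. miR-181c-5p lies at chr19:40888314-40888335 and miR-181d-5p at chr19:40888484-40888506, both on the plus strand, and no other annotated gene overlapped either. Their hairpin precursors are 78 bases apart and are printed because this cluster held the member with the largest difference between the Yap groups, with both mature arms in capitals.
Mir181c: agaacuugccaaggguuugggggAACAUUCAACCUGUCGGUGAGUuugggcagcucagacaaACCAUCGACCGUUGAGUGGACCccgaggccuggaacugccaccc
Mir181d: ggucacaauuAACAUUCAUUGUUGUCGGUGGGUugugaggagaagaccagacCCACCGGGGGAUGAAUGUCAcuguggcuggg

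In the control cells the order of the levels was miR-181a-5p, miR-181b-5p, miR-181c-5p and miR-181d-5p. miR-181a-5p stood at 15956 ± 182 CPM (SD, n = 3), which ranked 16 among the 579 tested miRNAs. miR-181b-5p stood at 6429 ± 201 CPM (rank 43), miR-181c-5p at 2867 ± 33.6 CPM (rank 63) and miR-181d-5p at 826 ± 41.7 CPM (rank 104). No neighbours in this order overlapped in any group, and the closest were miR-181b-5p and miR-181c-5p in knock-down cells, at 6556 ± 487 and 5515 ± 258 CPM. The order rests on reads of mature RNAs of 22 or 23 bases and assumes that each is captured alike. Together the 4 members took 3.22 ± 0.0935% of all miRNA reads in control cells, 2.97 ± 0.0979% in overexpression cells and 3.62 ± 0.0555% in knock-down cells (SD, n = 3).

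**Figure D1:**
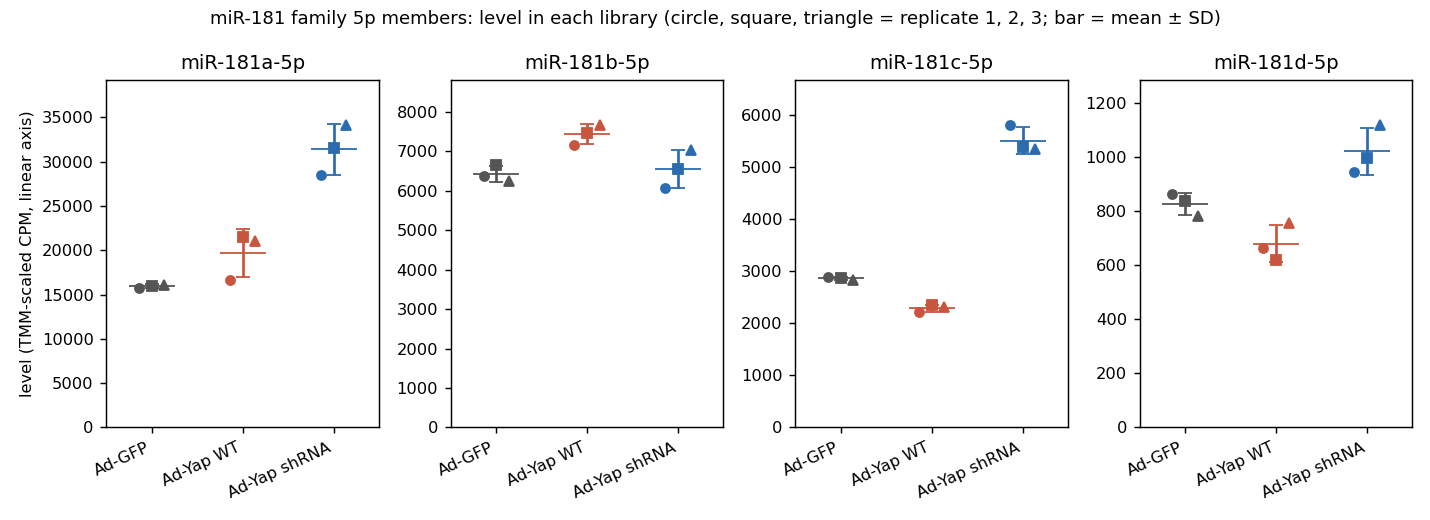
Level of each miR-181 5p member in every library, in TMM-scaled CPM on linear axes that start at 0, with 1 panel per member and 1 column per group. Symbols are the 3 replicates and bars show mean ± SD. miR-181c-5p was lowest in Ad-Yap WT and highest in Ad-Yap shRNA, and miR-181b-5p stayed between 6070 and 7668 CPM in all 9 libraries.

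Yap overexpression was compared with the control to find which members change when Yap is raised. miR-181c-5p fell, to 0.80 times its control level, and was the only member of the 4 to pass the test. The others were at 0.82 (miR-181d-5p), 1.16 (miR-181b-5p) and 1.23 (miR-181a-5p) times control and did not pass. miR-181a-5p and miR-181b-5p were at log2 differences of -0.0026 and 0.0086 with cyclic loess and of -0.022 and -0.10 with library size only. With the deposited library totals all 4 members were called lower (edgeR adjusted p from 0.0161 to 0.0281). miR-181c-5p read 2894, 2877 and 2829 CPM in Ad-GFP replicates 1 to 3 and 2218, 2349 and 2309 CPM in overexpression cells. Every overexpression library lay below every control library, and the log2 fold change was -0.32 (SE 0.067, edgeR adjusted p = 0.0123). The call ended without Ad-GFP replicate 1 (adjusted p = 0.0507) or Ad-Yap WT replicate 3 (0.0527), and with no filter on low counts (0.064).

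miR-181d-5p read 861, 837 and 780 CPM in control cells and 664, 619 and 754 CPM in overexpression cells. These groups did not overlap either, but the difference of -0.28 did not pass (SE 0.10, edgeR adjusted p = 0.0755). miR-181a-5p read 15767, 15969 and 16131 CPM in control cells and 16630, 21445 and 20987 CPM in overexpression cells. The deepest of the overexpression libraries, replicate 1, was close to the controls, and the difference of 0.30 did not pass (SE 0.12, edgeR adjusted p = 0.0922). Without that library it was 0.41 and passed (adjusted p = 0.0136).

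miR-181b-5p read 6388, 6647 and 6252 CPM in control cells against 7173, 7463 and 7668 CPM in overexpression cells, a log2 difference of 0.21 (SE 0.079, edgeR adjusted p = 0.0856). The libraries of all 4 members did not overlap between these groups, and 1 of 4 was called. Of all 579 tested miRNAs 25% were called in this comparison (15.4% higher and 9.67% lower) and 47.3% did not overlap. The median log2 fold change of the members was -0.04, beside 0.03 over all tested miRNAs.

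The question of which members change when Yap is lowered was put to the same control libraries, so both comparisons are not independent of each other. miR-181a-5p and miR-181c-5p rose 1.97-fold and 1.92-fold after TMM scaling, miR-181d-5p passed narrowly at 1.24-fold, and miR-181b-5p did not pass. With library size only, miR-181a-5p was at a log2 fold change of 0.37 and miR-181c-5p at 0.35 (edgeR adjusted p = 0.00221 and 0.0328). With the deposited library totals all 4 were called lower than control. miR-181a-5p and miR-181c-5p were both at -1.25 there (edgeR adjusted p = 0.00363 and 0.011). miR-181b-5p was at -2.19 and miR-181d-5p at -1.92 (edgeR adjusted p = 0.000456 and 0.00126). miR-181c-5p read 5812, 5384 and 5350 CPM in knock-down cells, every library above the control range of 2829 to 2894 CPM. Its log2 fold change was 0.94 (SE 0.067, edgeR adjusted p = 6.69e-05), which ranked 7 of 579 by p.

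miR-181a-5p read 28465, 31545 and 34129 CPM in knock-down cells against at most 16131 CPM in control cells. Its log2 fold change was 0.98 (SE 0.12, edgeR adjusted p = 0.000793). The lowest of its Ad-Yap shRNA values was in the deepest library of that group, as it was in overexpression cells, while for miR-181c-5p that library gave the highest Ad-Yap shRNA value. With cyclic loess scaling, by which any dependence of fold change on abundance is taken out, miR-181a-5p was at 0.43 (adjusted p = 0.000488) and miR-181c-5p at 0.75 (adjusted p = 0.000119). The part of miRNA depth in the rise of miR-181a-5p was not tested further.

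miR-181d-5p read 946, 997 and 1118 CPM in knock-down cells, all above the highest control value of 861 CPM. The log2 fold change of 0.30 passed narrowly (SE 0.10, edgeR adjusted p = 0.0435). The call ended in 7 of the 9 fits that left out 1 library: each Ad-GFP replicate, Ad-Yap WT replicates 1 and 2, and Ad-Yap shRNA replicates 2 and 3, with adjusted p up to 0.137. It also ended with DESeq2, RLE or upper quartile factors, no filter, a filter of at least 10 CPM in 3 libraries and the 2-group fit, and the sign turned with library size only (-0.30).

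miR-181b-5p read 6070, 6553 and 7045 CPM in knock-down cells, overlapping the control range of 6252 to 6647 CPM. The difference was 0.03 (SE 0.079, edgeR adjusted p = 0.82), and with cyclic loess scaling it was lower than control at -0.30 (adjusted p = 0.00804). With library size only, miR-181b-5p was called lower as well, at -0.57 (edgeR adjusted p = 0.00167). After TMM scaling, 3 of 4 members were called higher and 0 lower. Beside this, 41.8% of the tested miRNAs were called (24% higher and 17.8% lower) and 55.3% did not overlap. The members' median was 0.62, against 0.04 over all tested miRNAs.

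Levels of miRNAs used as cell type markers also differed in this comparison. The summed level of the 6 cardiac muscle miRNAs ran from 46501 to 50169 CPM in control cells and from 87511 to 104287 CPM in knock-down cells. That of the 3 fibroblast miRNAs ran from 14147 to 16496 CPM and from 5136 to 5985 CPM. The 2 endothelial miRNAs ran from 3581 to 4480 CPM in control cells and from 6172 to 7429 CPM in knock-down cells. The pair for smooth muscle and pericytes ran from 13867 to 14692 CPM and from 16454 to 21834 CPM. The 5 blood cell miRNAs were low in both groups, and lower in every knock-down library (334 to 439 CPM) than in any control library (479 to 658 CPM). The pair of neuronal miRNAs ran from 21.3 to 32.4 CPM over all 9 libraries, with miR-124-3p at 0 to 9 reads. No other listed marker was at 0 in any library. With overexpression, cardiac miRNAs ran from 46442 to 55163 CPM and fibroblast miRNAs from 13149 to 13835 CPM, the former overlapping the control range and the latter below it. The cardiac sum joins group means that moved apart from Ad-GFP to Ad-Yap WT. miR-499-5p went from 19822 to 26190 CPM, miR-133a-3p from 10984 to 8862 CPM and miR-1-3p from 17109 to 16728 CPM. The other cardiac miRNAs had 810 reads or fewer in every library. The endothelial pair was above every control library, at 5002 to 5852 CPM. Smooth muscle miRNAs ran from 13061 to 14790 CPM and blood cell miRNAs from 245 to 545 CPM, both overlapping the controls. In bulk RNA, fewer cells of a type and less RNA per cell cannot be told apart, and the part of these shifts in the members' changes was not tested.

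Setting the Yap manipulations against each other leaves the control libraries out of the contrast. The largest difference in the family was in miR-181c-5p, at 2292 ± 67.5 CPM with overexpression and 5515 ± 258 CPM with knock-down (SD, n = 3). This was a log2 fold change of -1.27 (SE 0.068, edgeR adjusted p = 2.64e-05), or 0.416 times the knock-down level, and ranked 2 of 579 by p. The call held in all 9 fits without 1 library, with adjusted p of at most 0.000457, and was lost with the deposited library totals (-0.39, adjusted p = 0.453).

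miR-181a-5p, at 19687 ± 2657 and 31380 ± 2836 CPM, was also lower with overexpression than with knock-down (log2 fold change -0.67, SE 0.12, edgeR adjusted p = 0.00453). miR-181d-5p, at 679 ± 68.9 and 1020 ± 88.1 CPM, was lower too (-0.59, SE 0.10, edgeR adjusted p = 0.00445), a call that ended with library size only (-0.30, adjusted p = 0.141). miR-181b-5p had the opposite sign, at 7435 ± 249 and 6556 ± 487 CPM, and did not pass after TMM scaling (0.18, SE 0.079, edgeR adjusted p = 0.123). It did pass with cyclic loess (0.31, adjusted p = 0.0103) and with library size only (0.47, adjusted p = 0.00765). Thus, after TMM scaling, 3 of 4 members were called lower and 0 higher, where 28.5% of all tested miRNAs were called (14.2% higher and 14.3% lower). With the deposited totals miR-181a-5p and miR-181d-5p turned to 0.19 and 0.34. All 4 members and 43.4% of all tested miRNAs did not overlap. The median was -0.63 for the members and -0.04 for all tested miRNAs.

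**Figure D2:**
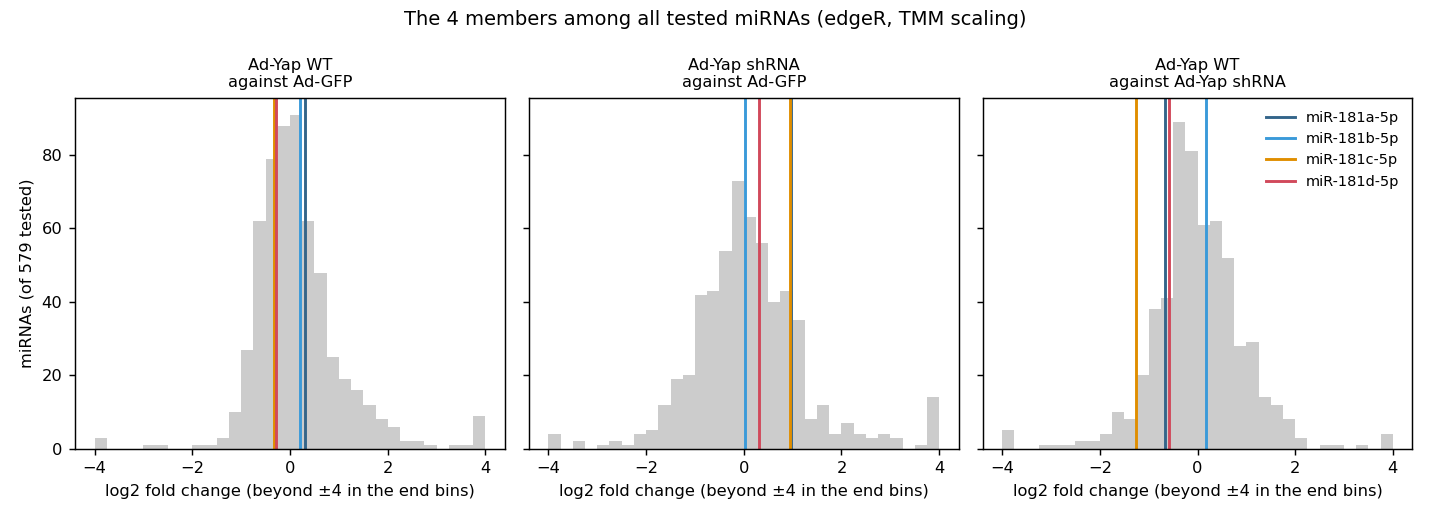
Distribution of the edgeR log2 fold changes of all 579 tested miRNAs (grey bars, number of miRNAs per bin of 0.25) with the 4 members as vertical lines, 1 panel per comparison. The members lie inside the main body of the distribution with Ad-Yap WT, and miR-181c-5p lies toward the lower end, at -1.27, when the Yap groups are compared.

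The sign of many of these changes depended on what a library was scaled to. Over all alternatives miR-181c-5p kept its sign with overexpression against control (-1.63 to -0.30) and between the Yap groups (-1.32 to -0.39). So did miR-181d-5p in the former comparison (-1.58 to -0.23) and miR-181b-5p in the latter (0.10 to 1.09). The share of miRNA reads in the deposited library totals was 24.6 to 26.2% in control cells, 8.76 to 17.6% in overexpression cells and 7.22 to 9.87% in knock-down cells. The authors' deposited RPM values are taken against those totals and were lower for every member in both Yap groups. miR-181a-5p stood at 4996 ± 82.5, 2400 ± 819 and 2106 ± 330 RPM in control, overexpression and knock-down cells (SD, n = 3). miR-181c-5p stood at 898 ± 34.6 RPM in control cells, 289 ± 133 RPM in overexpression cells and 378 ± 113 RPM in knock-down cells. With those totals the median log2 fold change of all tested miRNAs moved by -1.29 with overexpression, by -2.19 with knock-down and by 0.89 between the Yap groups. With library size only it moved by -0.30, -0.58 and 0.28. Under them the calls split 10 higher and 312 lower, 14 and 479, and 110 and 8 with the totals, and 51 and 104, 66 and 221, and 114 and 38 with library size only.

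Differences from that median are given next, over TMM, RLE, upper quartile, library size, deposited totals and cyclic loess. All but cyclic loess apply 1 factor to a whole library, which the median largely removes, so their likeness is no sign of stability. miR-181c-5p lay 0.35 to 0.44 below the median of all tested miRNAs with overexpression (log2 difference from -0.44 to -0.35). With Ad-Yap shRNA it lay above it by 0.74 to 0.90, and between the Yap groups its difference from the median ran from -1.23 to -1.17. miR-181a-5p lay above the median by 0.41 to 0.94 with knock-down and by 0.01 to 0.28 with overexpression, the lowest value of each being with cyclic loess (0.41 and 0.01). miR-181d-5p was at -0.32 to -0.27 with overexpression and at 0.23 to 0.36 with knock-down. miR-181b-5p was at 0.03 to 0.18 and at -0.32 to -0.01.

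**Figure D3:**
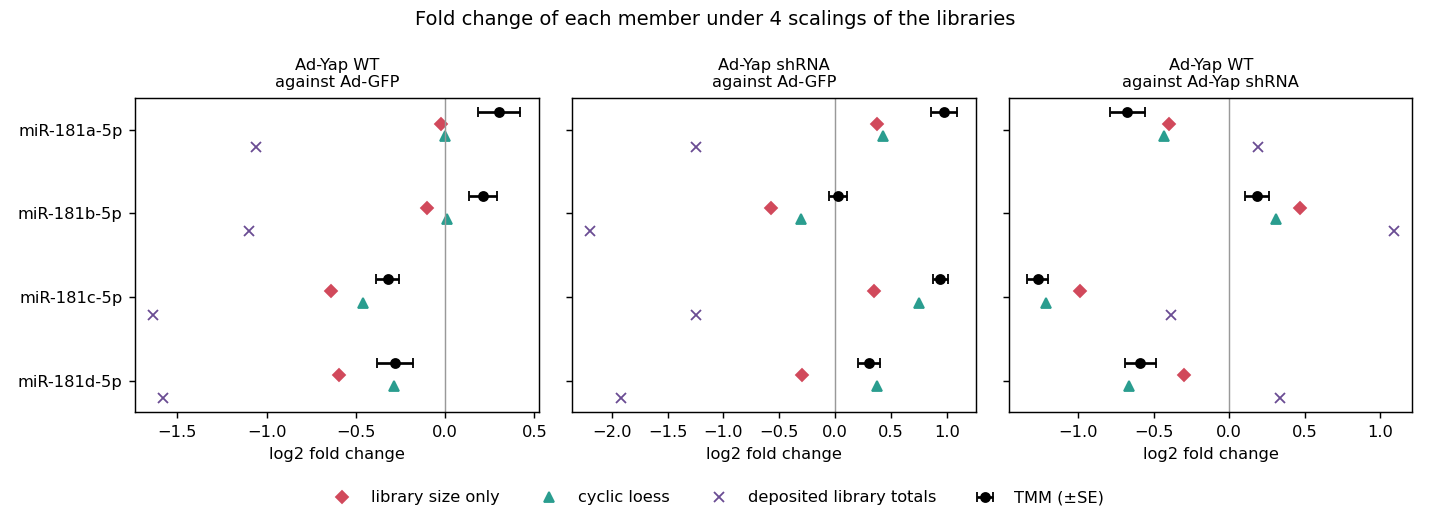
Log2 fold change of each member in the 3 comparisons under 4 scalings of the libraries, with the SE of the TMM fit as a bar. The deposited totals (crosses) shift all members the same way within a comparison, as 1 factor per library must, while cyclic loess (triangles) moves miR-181a-5p from 0.98 to 0.43 and miR-181c-5p from 0.94 to 0.75 with Ad-Yap shRNA.

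Shares within the family do not depend on a scaling that applies 1 factor to a whole library, and they are given here per library. Cyclic loess can change the relations between members. With Ad-Yap shRNA it put miR-181a-5p, miR-181b-5p, miR-181c-5p and miR-181d-5p at log2 fold changes of 0.43, -0.30, 0.75 and 0.37. After TMM scaling these were 0.98, 0.03, 0.94 and 0.30. miR-181c-5p made up 11.2, 10.9 and 10.9% of the 4 members' reads in Ad-GFP replicates 1 to 3. It made up 8.31, 7.37 and 7.28% in overexpression cells and 14.1, 12.1 and 11.2% in knock-down cells. The overexpression libraries lay below the controls and the knock-down libraries above them, the lowest of these only just (11.23% against at most 11.17%). The difference was -3.34 percentage points with overexpression and 1.48 with knock-down, the latter 0.673 without Ad-Yap shRNA replicate 1.

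miR-181b-5p took 24.7, 25.2 and 24.1% of the family's reads in control cells and 26.9, 23.4 and 24.2% in overexpression cells, which overlapped. In Ad-Yap shRNA it took 14.7, 14.7 and 14.8%, a difference of -9.91 percentage points from control. miR-181a-5p went from 61.2 ± 0.764% in control cells to 65.3% (SD 2.6, n = 3) and 70.5% (SD 1.4, n = 3). miR-181d-5p was at 3.17 ± 0.162% in control cells and at 2.27 ± 0.289% and 2.29 ± 0.0519% in the Yap groups, which overlapped each other.

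Each of these shares that did not overlap between groups had a two-sided exact permutation p of 0.1, the smallest that 3 libraries against 3 allow. Adjusted over the 4 members of a comparison, p was 0.133 with overexpression against control, 0.1 with knock-down against control and 0.133 between the Yap groups. The exact p was 0.9 for miR-181b-5p with overexpression and 1 for miR-181d-5p between the Yap groups. Within both Yap groups the deepest library, replicate 1, had the lowest share of miR-181a-5p and the highest share of miR-181c-5p, while the share of miR-181b-5p in knock-down cells ran only from 14.70 to 14.79%.

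**Figure D4:**
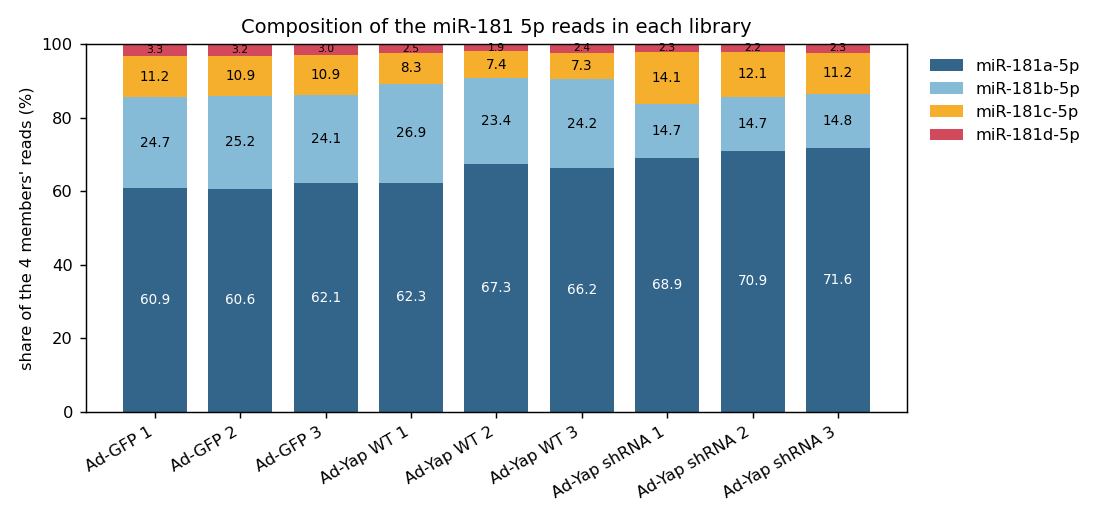
Share of each member in the summed reads of the 4 members, in percent, as stacked bars for the 9 libraries. The miR-181b-5p band spans 24.1 to 25.2% in Ad-GFP and 14.7 to 14.8% in Ad-Yap shRNA, and the miR-181c-5p band is narrowest in Ad-Yap WT.

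Members whose genes are neighbours did not keep their control ratio with knock-down, a comparison chosen after the values were seen. miR-181a-5p and miR-181b-5p each come from a pair of genes on separate chromosomes, so their ratio is not that of a single cluster. In Ad-GFP there were 2.40 to 2.58 reads of miR-181a-5p per read of miR-181b-5p, in overexpression cells 2.32 to 2.87 and in knock-down cells 4.69 to 4.84. For miR-181c-5p per read of miR-181d-5p the ranges were 3.36 to 3.63, 3.06 to 3.79 and 4.79 to 6.14. Both ratios were thus higher in every knock-down library than in any other library, and the Ad-Yap WT range held the Ad-GFP range. The log2 ratios differed from control by 0.95 and 0.64 with knock-down (two-sided exact permutation p = 0.1 for each) and by 0.08 and -0.04 with overexpression (exact p = 0.5 and 0.8).

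Of the 3 ratios computed, the one that separated all groups was that of miR-181b-5p to miR-181c-5p, at 2.21 to 2.31 in control cells, 3.18 to 3.32 in overexpression cells and 1.04 to 1.32 in knock-down cells. The 3 groups did not overlap, with log2 differences of 0.53 and -0.92 from control and 1.45 between the Yap groups (two-sided exact permutation p = 0.1 for each). This pair too was chosen after the values were seen. Ratios of the remaining pairs, such as miR-181b-5p to miR-181d-5p, were not computed. The separation is therefore not shown to be particular to miR-181b-5p and miR-181c-5p. Across the 9 libraries, log2 CPM of miR-181c-5p had a Pearson r of 0.89 with miR-181d-5p and 0.82 with miR-181a-5p, and miR-181a-5p one of 0.02 with miR-181b-5p. These values describe 9 points that fall into 3 groups and share each library's scaling.

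The other product of each hairpin, the 3p or passenger arm, is usually less stable and was read as a further measure of the same genes. The sequences of 3 such arms are shown because 1 of them is complementary to another entry of the table, with bases 2 to 8 in capitals (RefSeq, GRCr8).
miR-181a-1-3p: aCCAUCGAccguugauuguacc
miR-181a-2-3p: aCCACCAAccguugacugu
miR-181c-3p: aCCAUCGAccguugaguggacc
miR-3570: gGUACAAUcaacggucgauggu
miR-3570 is the exact reverse complement of miR-181a-1-3p over its 22 bases, and is annotated on the minus strand at chr13:52037121-52037142, the position of miR-181a-1-3p on the plus strand. In all 9 libraries exactly 1 of these entries had reads and the other had 0. miR-181a-1-3p held 731, 0 and 761 reads in control cells, 0, 381 and 0 in overexpression cells and 0 in all knock-down libraries. miR-3570 held 0, 801 and 0 reads in control cells, 698, 0 and 411 in overexpression cells and 258, 166 and 149 in knock-down cells.

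Neither entry is read alone here, and no strand of the counted reads is given in the sources used. Their sum, an alternative added after the values were seen, was even within groups at 175 ± 8.78 CPM in control cells, 210 ± 10.5 CPM in overexpression cells and 133 ± 5.69 CPM in knock-down cells (SD, n = 3). Fitted as 1 entry, it was lower with knock-down than with control (log2 fold change -0.40, SE 0.096, edgeR adjusted p = 0.012). That call ended without Ad-Yap shRNA replicate 2 (adjusted p = 0.0521) or replicate 3 (0.0608). The sum was higher with overexpression than with knock-down (0.66, edgeR adjusted p = 0.00237) and did not pass with overexpression against control (0.26, edgeR adjusted p = 0.0784).

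miR-181a-2-3p, the passenger arm of the gene on chromosome 3, was lower in both Yap groups. It read 430, 463 and 388 CPM in control cells, 302, 301 and 282 CPM in overexpression cells and 343, 266 and 301 CPM in knock-down cells. Its log2 fold changes from control were -0.53 (SE 0.12, edgeR adjusted p = 0.0151) and -0.49 (SE 0.12, edgeR adjusted p = 0.011). Leaving out Ad-GFP replicate 1 or 2 ended the first call (adjusted p = 0.0502 and 0.0503), as did leaving out Ad-Yap WT replicate 3 (0.064). The second ended without Ad-Yap shRNA replicate 2 or 3 (0.0543 and 0.0557).

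miR-181c-3p read 90.1, 105 and 88.1 CPM in control cells, 63.4, 47.8 and 51.2 CPM in overexpression cells and 104, 81.2 and 89.6 CPM in knock-down cells. It fell with overexpression (log2 fold change -0.80, SE 0.16, edgeR adjusted p = 0.0123), a call that ended without Ad-Yap WT replicate 3 (0.0564), and was at -0.04 with knock-down (SE 0.16, edgeR adjusted p = 0.875). It thus fell with its 5p partner under overexpression, while under knock-down the 5p arm rose and the 3p arm overlapped the controls. Between the Yap groups it was at -0.76 (edgeR adjusted p = 0.0109), a call lost on leaving out Ad-Yap shRNA replicate 1 (0.0521), with library size only (-0.47, adjusted p = 0.195) and with no filter (0.0534), and the sign turned with the deposited totals (0.19).

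The remaining passenger arms were near the limit of counting and were not tested: miR-181b-2-3p had 0 to 10 reads, miR-181b-1-3p 0 to 4 and miR-181d-3p 0 to 3. miR-181b-2-3p read 5, 10 and 5 in control cells, 10, 4 and 6 in overexpression cells and 0, 1 and 0 in knock-down cells, where miR-181b-5p had 8018 to 11244 reads. With 0.5 added to each count, miR-181b-5p per read of its 3p arms was 2577 to 4063 in control cells, 1512 to 1993 in overexpression cells and 5346 to 22489 in knock-down cells. This ratio was thus lower than control with overexpression and higher with knock-down, without overlap (two-sided exact permutation p = 0.1 for each). It rests on few 3p reads, and its log2 difference with knock-down went from 1.37 to 0.69 without Ad-Yap shRNA replicate 1. With 1 in place of 0.5 added to each count, that difference was 0.84.

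As ratios within a library, 5p reads per 3p read were 27.4 to 32.1 for miR-181c in control cells, 34.9 to 48.9 in overexpression cells and 55.6 to 66 in knock-down cells (0.5 added to each count). For miR-181a-5p per read of miR-181a-1-3p and miR-181a-2-3p the ranges were 26.5 to 34.4, 41.2 to 74.3 and 82.8 to 118, which depend on where the reads of the first stand. Per read of miR-181a-2-3p alone they were 34.4 to 41.5, 55 to 74.3 and 82.8 to 118, and with miR-3570 added to both 3p arms, like the former chosen after the values were seen, 24.8 to 28.4, 32.4 to 43.6 and 58.9 to 79.9. In each of these ratios of miR-181a and miR-181c the groups did not overlap, and the exact permutation p was 0.1 for every pair of groups. Within both Yap groups the deepest library had the lowest of these ratios, other than that with miR-181a-1-3p and no miR-3570 in overexpression cells, and the part of depth in the differences was not tested.

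**Figure D5:**
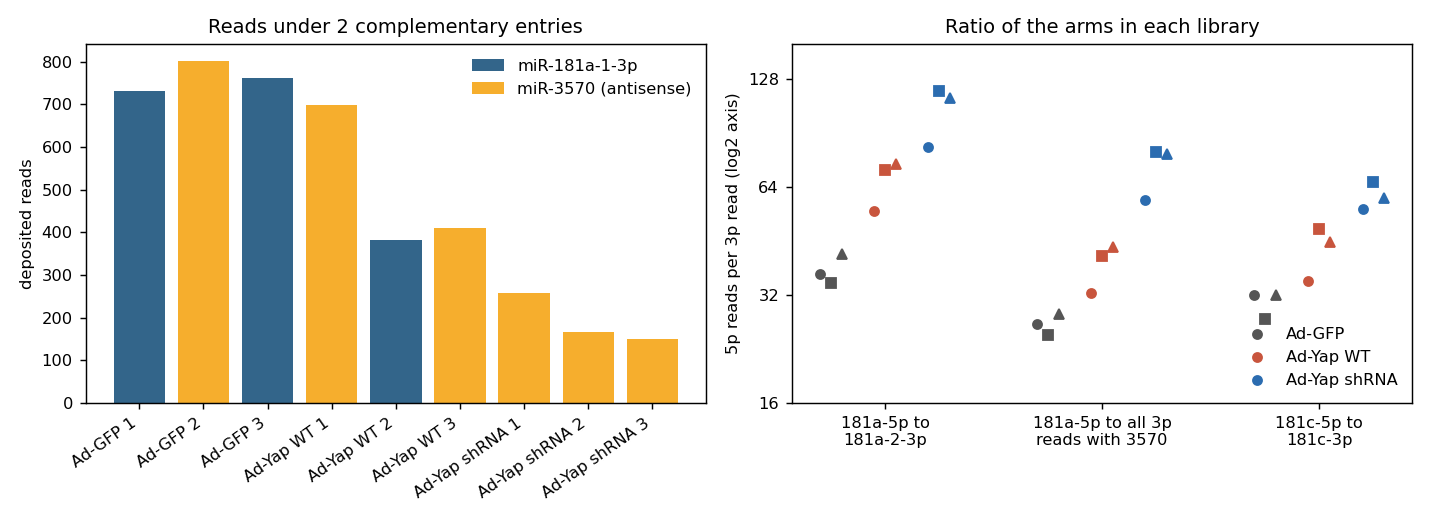
Left, deposited reads under miR-181a-1-3p and under its reverse complement miR-3570 in each library, where each library has reads under 1 of them. Right, 5p reads per 3p read in each library on a log2 axis for 3 choices of 3p reads, with symbols for replicates 1 to 3: these 3 ratios are lowest in Ad-GFP and highest in Ad-Yap shRNA, unlike that of miR-181b, which is not drawn and was lowest in Ad-Yap WT.

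miR-181c belongs to a small group of miRNAs reported to act on transcripts of the mitochondrial genome in muscle or heart, and 4 others of that group were in the table. With Ad-Yap WT 2 of the 4 rose, where 15.4% of all tested miRNAs were called higher, miR-21-5p by 0.69 and miR-92a-3p by 0.24 (log2 fold changes, edgeR adjusted p = 0.0201 and 0.0465). With Ad-Yap shRNA 3 of the 4 rose, where 24% of all tested miRNAs were called higher, miR-1-3p by 0.82, miR-21-5p by 0.78 and miR-92a-3p by 0.29 (edgeR adjusted p = 0.00158, 0.00673 and 0.014). miR-1-3p, made in striated muscle, was at -0.03 with overexpression (adjusted p = 0.879) and at -0.85 between the Yap groups (edgeR adjusted p = 0.00206), the same order of the Yap groups as miR-181c-5p. miR-378a-3p passed with knock-down at -5.71 (edgeR adjusted p = 0.0451), but its reads ran from 33 to 76289 within Ad-GFP alone, so its value is uncertain. Between the Yap groups miR-378a-3p had the opposite order, at 7.48 (edgeR adjusted p = 0.0317). There miR-21-5p and miR-92a-3p were at -0.09 and -0.05 and did not pass (edgeR adjusted p = 0.732 and 0.641).

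By the naming rule, the miRNAs whose log2 CPM over the 9 libraries was most like each member were found among 353 annotated miRNAs outside the family. For miR-181a-5p they were miR-499-5p (Pearson r 1.00), let-7g-5p (0.99) and miR-26a-5p (0.97), and for miR-181c-5p miR-342-3p (0.98), miR-133a-3p (0.97) and miR-30b-5p (0.96). For miR-181d-5p they were miR-708-5p (0.96), miR-208a-5p (0.94) and miR-26b-5p (0.92). For miR-181b-5p they were miR-384-5p (0.88), miR-222-3p (0.88) and miR-34c-3p (0.84). All points share depth and scaling and fall into 3 groups, and the values are descriptions. miR-499-5p went from 19822 to 26190 and 46924 CPM from Ad-GFP to Ad-Yap WT and Ad-Yap shRNA (group means), as miR-181a-5p went from 15956 to 19687 and 31380 CPM.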

How the data were processed

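Small RNA from 9 libraries was read as 1 deposited table of 1422 miRNAs (653 annotated, 769 predicted). The deposited read counts are whole numbers per miRNA, not normalized, per the file headers. The deposited RPM values were computed by the authors per library totals of 13.7 to 22.1 M, and what those totals count is not stated. Bowtie2, DESeq2 and the rn6 build are named, without versions or roles, in the submitters' processing notes, and the labels' protocols describe a small RNA kit and single-end sequencing. No source used here gives how multiply matching reads were assigned.

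Counts were fitted with edgeR 4.0.16 (R 4.3.3): filterByExpr left 579 miRNAs, TMM scaling, glmQLFit and glmQLFTest on all 9 libraries with 1 mean per group, Benjamini-Hochberg over the 579, threshold 0.05, two-sided. SE was taken as the fitted log2 difference over the root of the F statistic. Shares and ratios were compared by exact permutation tests (scipy 1.17.1). Replicates of a group differed beyond counting noise. PCR copies make reads fewer molecules than they count, and precision at low counts is limited accordingly. The members, lists and alternatives were chosen with earlier results of these data known. Named were the 4 members, the 3p arms, 4 miRNAs acting on mitochondrial transcripts and, per member, the 3 annotated miRNAs of at least 10 CPM with the highest correlation; miR-3570 and the ratios between members were added after values were seen. Alternatives were DESeq2 1.42.0, limma-voom (limma 3.58.1), other scalings and filters, 2-group fits, a replicate block and each library left out.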

Additional observations from a re-analysis of the deposited data

How the results depend on the processing

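The calls of miR-181a-5p and miR-181c-5p with Ad-Yap shRNA held under every alternative but the deposited library totals, and that of miR-181c-5p with Ad-Yap WT under all but no filter (-0.45, adjusted p = 0.064) and 2 fits without 1 library. Values are log2 fold changes; A is Ad-Yap WT against Ad-GFP, B Ad-Yap shRNA against Ad-GFP and C Ad-Yap WT against Ad-Yap shRNA. With the deposited totals, which shift all miRNAs of a library nearly alike, miR-181a-5p stood at -1.06 in A, -1.25 in B and 0.19 in C, miR-181b-5p at -1.10 in A and -2.19 in B, miR-181c-5p at -1.25 in B and -0.39 in C (adjusted p = 0.453), miR-181d-5p at -1.58 in A, -1.92 in B and 0.34 in C, and in C miR-181a-2-3p at 0.85 and miR-181c-3p at 0.19. The number of calls was 322 in A and 493 in B with those totals, and 90 in A with no filter, against 145 and 242. With library size only, miR-181a-5p (-0.022) and miR-181b-5p (-0.10) changed sign in A, where miR-181d-5p passed at -0.59. In B miR-181b-5p (-0.57) and miR-181d-5p (-0.30) changed sign, and miR-181b-5p passed as lower (edgeR adjusted p = 0.00167). In C miR-181b-5p passed at 0.47, miR-181d-5p did not at -0.30 and miR-181a-2-3p was at 0.24. With cyclic loess miR-181a-5p was at -0.0026 in A and miR-181c-3p at 0.011 in B. miR-181b-5p was then at -0.30 in B and 0.31 in C, passing in each. miR-181b-5p in B changed sign with DESeq2 (-0.0521), RLE (-0.0519), no filter (-0.089) and the 2-group fit (-0.0091), and miR-181a-2-3p in C with RLE (0.00045). miR-181d-5p passed in A under DESeq2 (-0.32). Its call in B ended with DESeq2 (0.22), RLE (0.23), upper quartile factors (0.29), no filter (0.19), at least 10 CPM in 3 libraries (0.28), the 2-group fit (0.27) and the replicate block (0.30, adjusted p = 0.0649). Same-numbered libraries did not deviate together (correlation over 0.1 in 1 of 9 pairs), so the numbers are not taken as pairs, and the block changed no other call of a member. The summed entry of miR-181a-1-3p and miR-3570 was at 0.26 in A, against -0.66 for the first alone. The 5p to 3p ratio of miR-181d in A, resting on 0 to 3 reads, went from 0.49 to -0.027 with a pseudocount of 1. Without 1 library at a time, values ran from 0.23 to 0.41 for miR-181a-5p in A, -0.0040 to 0.097 for miR-181b-5p in B, -0.35 to -0.30 for miR-181c-5p in A and 0.26 to 0.37 for miR-181d-5p in B. They ran from -0.14 to 0.028 for miR-181a-2-3p in C, -0.13 to 0.043 for miR-181c-3p in B and -0.12 to 0.035 for the ratio of miR-181c-5p to miR-181d-5p in A. Shares ran from -0.858 to 0.877 percentage points for miR-181b-5p in A, -1.20 to 0.200 for miR-181a-5p with miR-181b-5p in B and -0.132 to 0.141 for miR-181d-5p in C. The number of calls in A ran from 71 (without Ad-Yap WT replicate 3) to 148, with 83, 96 and 96 without Ad-GFP replicates 1, 2 and 3. With these depths members were counted by 1075 reads or more per library, while the passenger arms of miR-181b and miR-181d were too low to test.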
